A study of Homo sapiens with 4 samples.

Results

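DEAD and DEAH box helicase mRNAs are described here by their antibody-enriched regions (peaks) for N7-methylguanosine (m7G), a methylated guanine that forms the mRNA cap and also occurs inside mRNA. The samples were 2 m7G immunoprecipitates (IP) and 2 inputs without antibody, all from untreated U2OS, an established human osteosarcoma cell line. Members were the rows of the deposited peak tables whose gene name begins with DDX or DHX and a digit. They made up 16 of 4326 peaks in IP replicate 1 and 29 of 4862 peaks in IP replicate 2. These peaks named 25 genes, out of 54 protein-coding DDX and DHX genes in the RefSeq gene table of GRCh38.p14. A family gene without a row counted as having no peak.

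The poly(A) RNA came from whole cells of a bulk culture, so a mark on fewer molecules and a mark in fewer cells cannot be told apart. Every peak carries the authors' own fold of IP over input and a false discovery rate (FDR). Read counts were not used here, so the depth behind each fold is unknown. The input enters only through the authors' peak calls, with their folds and FDRs. The labels do not say that the replicates were separate cultures, and their spread may be technical. Of the mesenchymal and bone markers, 5 of 11 had overlapping peaks in the 2 replicates (COL1A1, COL5A1, SPARC, VIM and FN1). RUNX2, ALPL, SPP1, BGLAP, COL1A2 and CDH11 had no peak in either replicate. The epithelial markers had 2 of 6 (KRT18 and CLDN4) and the neuronal markers 1 of 5 (NEFL), while the haematopoietic markers had 0 of 6. Over all protein-coding genes the share was 10.5%. RNA levels are not measured in these tables, so a missing peak does not show that an RNA is missing.

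DEAD and DEAH box proteins use ATP to bind, remodel or unwind RNA, and are named after the amino acid letters of a conserved ATPase motif. DEAD box members act locally on short duplexes, and many serve ribosome assembly, translation or splicing. DEAH box members move along single-stranded RNA, and several drive successive steps of the spliceosome. Many are activated by partner proteins, MIF4G-fold proteins for DEAD box members and G-patch proteins for DEAH box members.

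Sequence is shown for the helicase RNAs whose peak reaches into the first 50 transcribed bases, the end nearest the m7G cap. RefSeq start windows, which run from 250 nt before to 50 nt after a transcript start, were found for 49 of the 54 genes. Peaks of DDX1, DDX42 and DDX47 reached into the first 50 transcribed bases. The DDX42 peak began at base 20 in both replicates and the DDX47 peak at base 31. Of these peaks, only the replicate 2 peak of DDX1 covered the annotated start itself. Capitals mark bases inside a peak of at least 1 replicate, and the reading is 5′ to 3′ on the plus strand of GRCh38.p14.
DDX1, bases 21 to 50 after the start, chr2:15591888-15591917: GGGAGGGAGGGAGCGAGCAGGCGAAGCCGC
DDX1, the 40 bases before the start, chr2:15591828-15591867: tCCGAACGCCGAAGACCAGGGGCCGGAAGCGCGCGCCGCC
DDX42, bases 21 to 50 after the start, chr17:63774190-63774219: AACGGGCCGTGAGGCGGTGGCGGTGGTGGC
DDX47, bases 21 to 50 after the start, chr12:12813366-12813395: agatggcggcACCCGAGGAACACGATTCTC
The DDX1 run had 17 G and 7 A among its 30 bases, and 29 of the 30 lay inside the peak of both replicates. The replicate 2 peak of DDX1 also began 39 nt before the annotated start, while the replicate 1 peak began at base 22. The DDX42 run had 17 G and 3 A, and all 30 bases lay inside the peak of both replicates. The DDX47 run lay in a peak found only in replicate 2, which covered 20 of its bases. Over the first 50 transcribed bases, helicase genes with a shared peak had a median GC content of 65% (42 to 76% over 10 windows). Over protein-coding genes with a shared peak the median was 70%, and over all protein-coding genes 64%.

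A peak was called shared if its blocks and those of a same-strand peak in the other replicate had 1 bp or more in common. Of the 54 helicase genes, 8 had a shared peak (14.8%, Wilson 95% interval 7.7 to 26.6%), against 10.5% of all 20056 protein-coding genes. They were DDX51, DDX42, DHX37, DHX36, DDX54, DDX1, DHX38 and DDX5. A shared peak was found on 5 of 38 DDX genes and 3 of 16 DHX genes. Where both replicates had to reach 4-fold, 3 helicase genes were left (5.56%), against 5.17% of all protein-coding genes. The Wilson intervals cover counting error only, and both helicase shares had the background inside their interval.

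The tables differed more for the helicases than the totals did. In replicate 2, 23 of 54 helicase genes had a peak (42.6%, Wilson 95% interval 30.3 to 55.8%), against 17.4% of all protein-coding genes. In replicate 1, 11 of 54 had one (20.4%, 11.8 to 32.9%), against 15.9% of all. The number of helicase genes with any peak, shared or not, thus depended on the replicate: 23 without replicate 1 and 11 without replicate 2. Only replicate 2 named 14 helicase genes and only replicate 1 named 2, against 1147 and 862 of all protein-coding genes. The number of helicase peaks in replicate 2 was 1.81 times that in replicate 1, against 1.12 times for all peaks. A peak in both tables, overlapping or not, was present on 9 helicase genes (16.7%), against 11.6% of all protein-coding genes. A peak in either table was present on 25 (46.3%), against 21.7%. The shares of all protein-coding genes count every gene, expressed in these cells or not. A comparison with expressed genes only was not made. Among genes with a peak in either table, 8 of 25 helicase genes had a shared peak (32%, 17.2 to 51.6%), against 48.3% of all such genes.

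**Figure D1:**
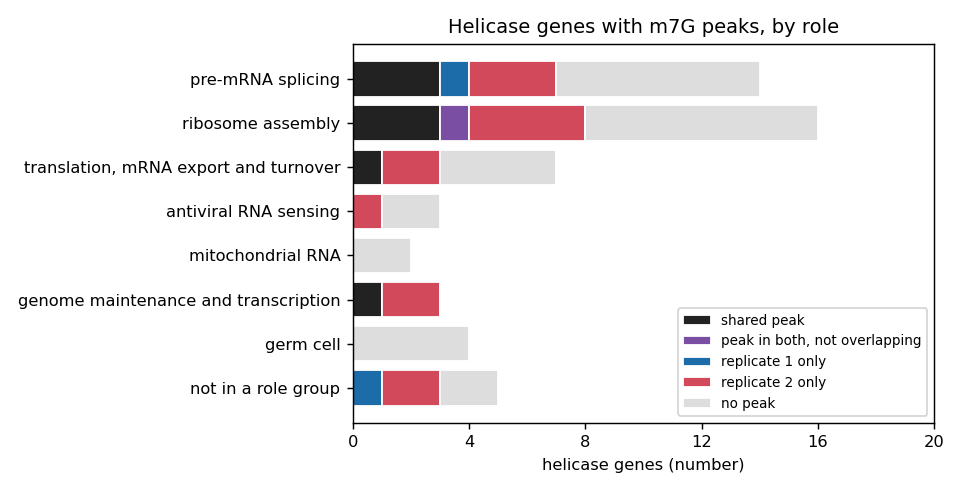
Number of DDX and DHX genes (horizontal axis) in each role group, with the segments standing for a shared peak, peaks in both tables that do not overlap, a peak in replicate 1 only, a peak in replicate 2 only and no peak. Splicing and ribosome assembly helicases each had 3 genes with a shared peak, and the germ cell and mitochondrial groups had none with any peak.

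By role, ribosome assembly helicases had a shared peak on 3 of 16 genes and a peak in either table on 8, against 10.5% and 21.7% of all protein-coding genes. Splicing helicases had 3 of 14 and 7. Helicases of translation, mRNA export and turnover had 1 of 7 and 3, and those of genome maintenance and transcription 1 of 3 and 3. The 3 antiviral sensors in the family had 1 gene with a peak in either table, DDX60L, and none shared. The 2 helicases of mitochondrial RNA, DDX28 and DHX30, had no peak in either table. Neither did the 4 germ cell helicases DDX4, DDX25, DDX43 and DDX53. These groups are small, and their shares were not compared by a test.

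Among ribosome assembly helicases the highest folds were those of DDX51, a nucleolar protein of large-subunit rRNA maturation. The DDX51 peak had a fold of 10.4 in replicate 1 and 8.4 in replicate 2, with FDRs of 5.01e-11 and 7.41e-09. It lay on chromosome 12 from 132143864 to 132144156, minus strand, with the same boundaries and the same 2 blocks in both replicates. Its fold was higher than that of 86.4% of replicate 1 peaks and 87% of replicate 2 peaks. DHX37, which releases the U3 snoRNA from the small-subunit precursor, had 3 peaks in each replicate, of which 2 were shared. The unshared DHX37 peaks had folds of 3.87 in replicate 1 and 6.36 in replicate 2, the latter 193 nt from the annotated gene end. The stronger shared DHX37 peak had folds of 5.29 and 5.91 and lay 8404 nt and 8344 nt from the annotated start. The other had folds of 2.88 and 3.48 and came within 130 nt and 160 nt of that start. DDX54, a nucleolar helicase also described as a nuclear receptor corepressor, had 3.8 and 3.84, the smallest gap between replicates among the members. Its peak lay toward the other end of the gene, 78.4% along the annotated span in replicate 1.

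Among splicing helicases DDX42, a protein associated with the U2 snRNP, had folds of 9.62 and 7.06 with FDRs of 4.47e-09 and 4.27e-09. Its peak ran from 63774189 to 63774369 on chromosome 17, plus strand, in both replicates, 181 nt in a single block. This block began 389 nt inside the annotated gene span but 19 nt after the transcript start listed by RefSeq, and it holds the run printed above. Another replicate 2 peak of DDX42, with a fold of 1.64, was not shared. DHX38, the human PRP16 of the second splicing step, had 2.1 and 1.9 at its shared peak. Further replicate 1 peaks of DHX38, with folds of 2.23 and 2.13, were not shared. The DHX38 overlap was 61 nt, or 50.4% of each peak, and its FDR was 0.000708 in replicate 1 and 0.00603 in replicate 2. DDX5, the splicing factor and transcriptional coactivator p68, had the lowest shared folds, 1.29 and 1.44. The DDX5 peak was nonetheless among the more significant ones, with FDRs of 2.95e-08 and 2e-19. Its fold was above only 1.27% and 5.31% of the peaks of its tables, and its significance above 77.5% and 90.5%.

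Outside these roles, DHX36, which unwinds G-quadruplexes, had folds of 2.85 in replicate 1 and 5.26 in replicate 2. The replicate 1 peak of DHX36, 61 nt long, lay wholly inside the replicate 2 peak of 151 nt. DDX1, a subunit of the tRNA ligase complex, had 2.48 and 4.75 on a peak of 3 blocks that reached from 15591829 to 15595496 on chromosome 2 in replicate 2. In both genes the replicate 2 fold was the higher, by 0.88 for DHX36 and 0.94 for DDX1 on the log2 scale. Gaps smaller than these were seen at 88.5% and 90.1% of all shared peaks, and 95% of all shared peaks differed by less than 1.28. The gap of each gene was therefore inside the spread between replicates. For the other 7 shared helicase peaks it ran from -0.45 (DDX42) to 0.27 (DHX37), replicate 2 minus replicate 1.

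**Figure D2:**
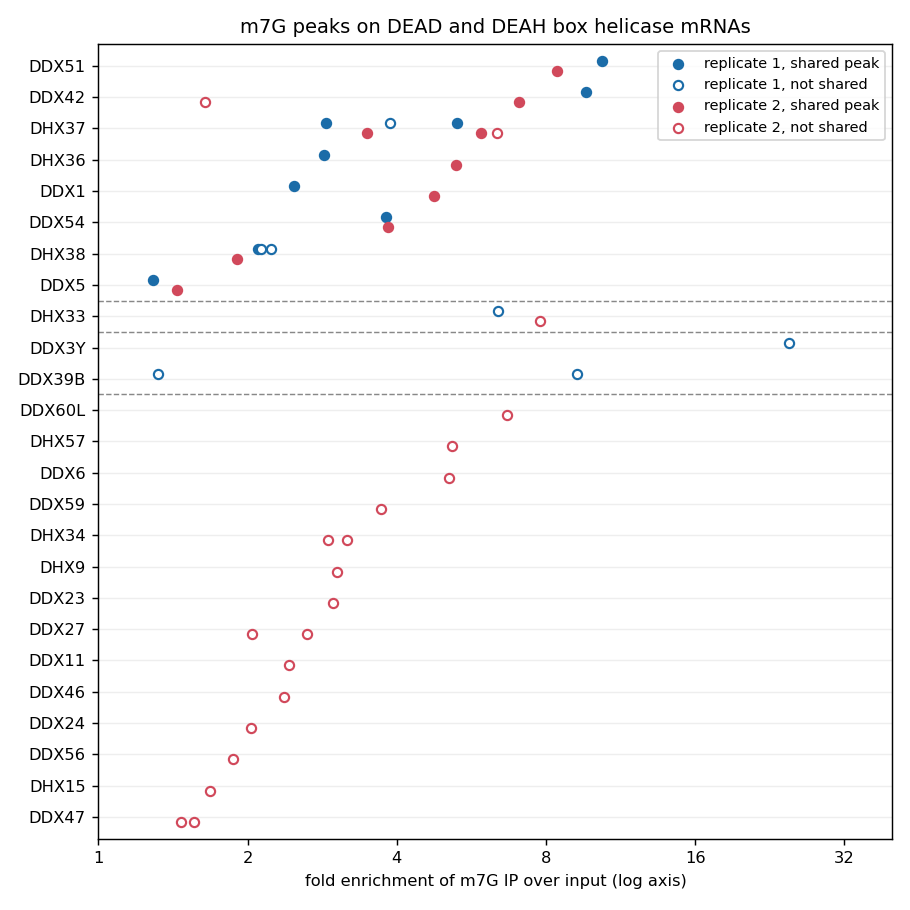
Fold of IP over input (horizontal, log axis) for each peak on the 25 helicase genes with a peak, replicate 1 in blue and replicate 2 in red, filled where shared and open where not, with dashed lines between genes with a shared peak, peaks in both tables apart from each other, replicate 1 only and replicate 2 only. DDX51 and DDX42 lead the shared peaks, DDX5 has the lowest, and the DDX3Y peak at 24.7 stands alone on the right.

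Taken per gene at the strongest shared peak, the mean fold of both replicates had a median of 3.85 for the 8 helicase genes, with an interquartile range of 3 to 6.16. For all 2098 protein-coding genes with a shared peak it was 4.61, from 2.77 to 7.73. By replicate, the helicase medians were 3.33 and 5, against 4.78 and 4.29 over all genes. The helicase median was thus the lower in replicate 1 and the higher in replicate 2. Replicate 2 had the higher fold at 6 of 9 helicase shared peaks, against 44% of all shared peaks.

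**Figure D3:**
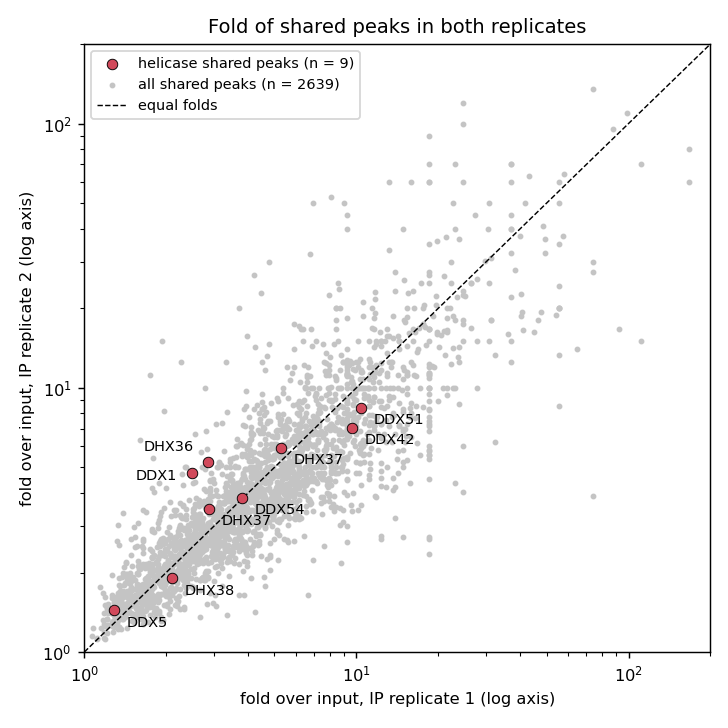
Fold in IP replicate 2 against fold in IP replicate 1 (both log axes) for the 9 shared helicase peaks, named and in red, and for all 2639 shared peaks in grey, with a dashed line at equal folds. DHX36 and DDX1 lie above the line and DDX51 and DDX42 below it, all within the grey cloud.

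DHX33, a nucleolar helicase of rRNA synthesis, was the only member with a peak in both tables that did not overlap. Its folds were 6.41 and 7.78, on 2 peaks of 61 nt with 29 nt between them on chromosome 17. All 45 helicase peaks had a length of a whole multiple of 30 nt or 1 nt more, as had 78.4% of all replicate 1 peaks and 77.5% of all replicate 2 peaks. The gap at DHX33 was thus about 1 such step.

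The other members had a peak in 1 replicate only. In replicate 1 these were DDX39B, an export and splicing helicase of the TREX complex, and DDX3Y, the Y-linked copy of the translation helicase DDX3X. DDX39B had a peak of 1.32 inside the gene and a peak of 9.25 that lay 262 nt upstream of the annotated span. The span of ATP6V1G2-DDX39B, on the same strand, also covers both peaks, and DDX39B-AS1, on the opposite strand, covers part of the second. DDX3Y had a fold of 24.7, the highest of the family, but an FDR of only 0.0151. It was the only peak on chromosome Y in replicate 1, and DDX3X had no peak in either table. Replicate 2 also had 1 peak on chromosome Y, under another gene name. DDX3X and DDX3Y are closely similar in sequence, so the assignment of these reads is uncertain. DDX3Y is nonetheless included, by its name, in the 11 helicase genes with a replicate 1 peak and the 25 with any peak. The exact fold of 24.7 was shared by 18 peaks of the table and 9.25 by 68, and the replicate 2 fold of DDX60L, 6.67, by 48. No other helicase peak had a fold held by more than 22 peaks of its table.

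Only in the replicate 2 table were found peaks of 14 helicase genes, with folds from 1.47 to 6.67. Among splicing helicases these were DDX23 (2.98), the U5 snRNP protein PRP28, DDX46 (2.37), the human PRP5, and DHX15 (1.68), which dismantles spliceosomes. Among ribosome assembly helicases they were DDX27 (2.63 and 2.04 on 2 peaks), DDX24 (2.03), DDX56 (1.87) and DDX47 (1.56 and 1.47). DDX6, a P-body helicase that represses translation, had 5.09 at a peak 196 nt from the annotated gene end. DHX34, a factor of nonsense-mediated decay, had 2 peaks of 3.17 and 2.91. DHX9, which is RNA helicase A, had 3.03, also near the gene end (626 nt). The DNA helicase DDX11 had 2.42, the interferon-inducible DDX60L 6.67, DHX57 5.18 and DDX59 3.71.

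Of the peaks found only in replicate 2, 3 were among the most significant of that table. DDX27 had an FDR of 3.16e-18 in replicate 2, DDX23 of 1.26e-15 and DHX9 of 2e-13. They fell in the most significant 20% of the replicate 2 table, of which 93.2% overlapped a replicate 1 peak over all genes. Of the 4 helicase peaks in that class only that of DDX5 did. Over the whole table, 9 of 29 helicase peaks of replicate 2 overlapped a replicate 1 peak (31%, Wilson 95% interval 17.3 to 49.2%), against 55.9% of all replicate 2 peaks. In replicate 1 it was 9 of 16 (56.2%, 33.2 to 76.9%), against 62.6% of all replicate 1 peaks.

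**Figure D4:**
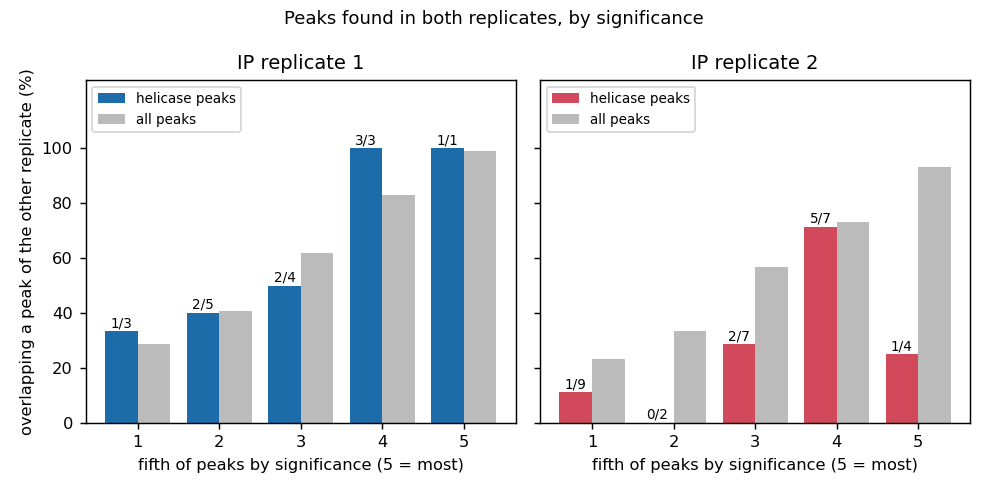
Percent of peaks that overlap a peak of the other replicate (vertical axis) by class of significance within each table (horizontal axis, each class 20% of the table, 5 the most significant), for helicase peaks in colour, with their numbers, and for all peaks in grey, replicate 1 at left and replicate 2 at right. In the most significant class of replicate 2, 1 of 4 helicase peaks overlapped, against 93.2% of all peaks.

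The position of the shared helicase peaks depended on how the start was defined. With both midpoints within 200 nt of the start of the annotated span, only the DDX1 peak lay at the gene start, 1 of 9 (11.1%, Wilson 95% interval 1.99 to 43.5%), against 20.6% of all shared peaks. With any block within that distance in either replicate it was 4 of 9 (44.4%, 18.9 to 73.3%), against 36% of all, as the peaks of DDX51, DHX36 and DHX37 were added. The nearest block of DDX51 lay 163 nt from the start, and that of DHX36 lay 200 nt and 140 nt from it. With any start that RefSeq lists and blocks within 200 nt in both replicates, a definition chosen after the data were seen, it was 6 of 9 (66.7%, 35.4 to 87.9%). Over all genes it was 35.3% of the 2140 shared peaks whose gene has a listed start. DDX42 and DDX5 were then added. DDX5 has 3 listed starts, and the upstream block of its peak lay 139 nt before the nearest of them. The DDX54 peak, the DHX38 peak and the stronger DHX37 peak lay away from every listed start. Distances are genomic and include introns.

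**Figure D5:**
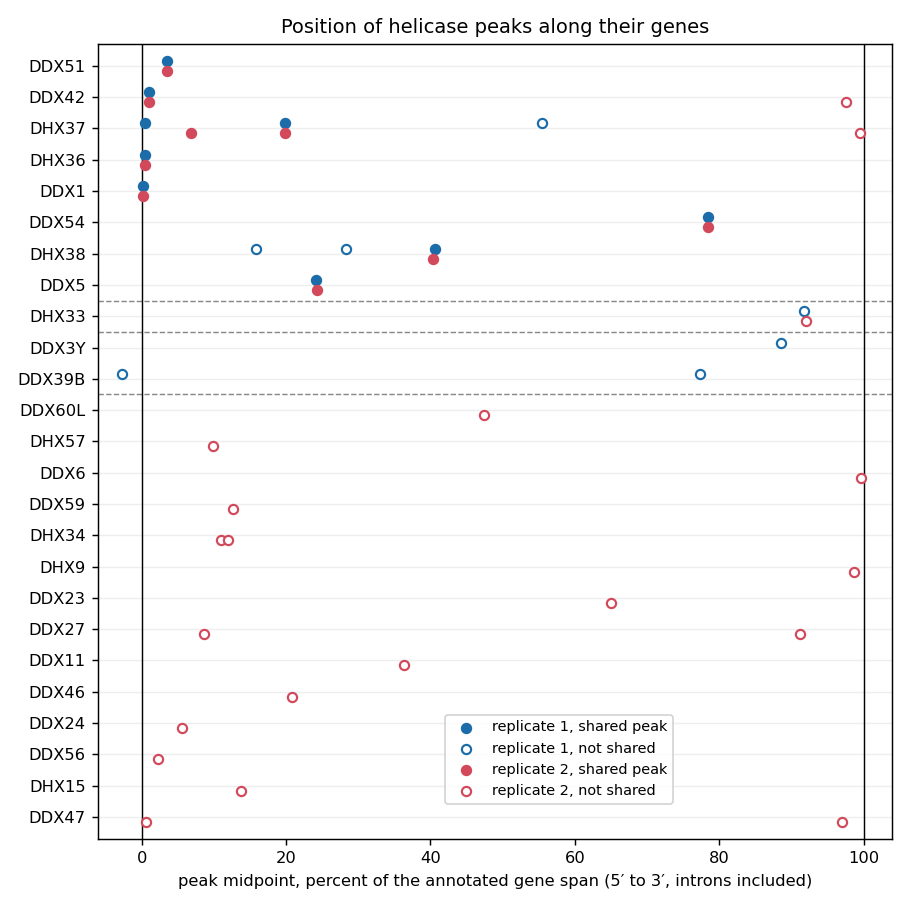
Midpoint of each peak as a percent of the annotated gene span from 5′ to 3′ (horizontal axis, introns included) for the 25 helicase genes with a peak, replicate 1 in blue and replicate 2 in red, filled where shared. Shared peaks of DDX1, DHX36, DDX42 and DDX51 sit at the left edge, and the unshared peaks of DDX6, DHX9, DDX42, DHX37 and DDX47 at the right edge are all from replicate 2.

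The few helicase peaks near the gene end were all in replicate 2, at a share close to that of all peaks there. Within 1000 nt of the annotated end lay 4 of 29 helicase peaks there (13.8%), on DDX6, DDX47, DHX37 and DHX9, and 0 of 16 in replicate 1. Over all genes it was 16.9% of replicate 2 peaks and 15.1% of replicate 1 peaks. Peaks listed as more than 1 block, with a gap between the blocks, made up 10 of 16 helicase peaks in replicate 1 (62.5%, Wilson 95% interval 38.6 to 81.5%), against 30.8% of all, and 14 of 29 in replicate 2 (48.3%, 31.4 to 65.6%), against 34.7% of all. Of the shared helicase peaks, 6 of 9 had more than 1 block in both replicates (66.7%, 35.4 to 87.9%), against 31% of all shared peaks. Several of the 10 such peaks in replicate 1 come from the same genes, and 3 of them lay on DHX38. In replicate 2, DDX27 had more than 1 such peak. More than 1 peak was carried by 3 of 11 helicase genes in replicate 1 and 5 of 23 in replicate 2, against 24.9% and 27.1% of all genes with a peak.

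The remaining 29 helicase genes had no peak in either table. Among them were the translation helicases DDX3X and DHX29, the export helicases DDX19A and DDX19B, and the p68 paralog DDX17. The splicing helicases DHX8 and DHX16 (human PRP22 and PRP2), DHX35, DDX20, DDX39A and DDX41 had none either. Of the ribosome assembly group, DDX10, DDX18, DDX21, DDX31, DDX49, DDX50, DDX52 and DDX55 had none. The antiviral DDX60 and DHX58 and DHX32 and DHX40 complete the set with the 2 mitochondrial and 4 germ cell members. The annotated span had a median of 28899 nt in genes without a peak and 33770 nt in the 8 genes with a shared peak. The ranges, 2317 to 275859 nt and 7726 to 51942 nt, overlapped.

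Related genes outside the family were counted from lists. Of 25 other RNA helicases, 2 had a shared peak (8%), close to the 10.5% of all protein-coding genes. They were EIF4A1, the cap-complex helicase (1.89 and 2), whose peak the span of SENP3-EIF4A1 also covers, and SNRNP200, the U4/U6-unwinding helicase of the U5 snRNP (3.05 and 2.37). Of 20 G-patch proteins, 2 had one (10%), GPATCH4 (2.89 and 2.6) and RBM10 (2.37 and 2.24). Of 12 MIF4G-fold proteins, 4 had one (33.3%). These were NOM1 (7.02 and 5.5), a nucleolar partner of the helicase EIF4A3, EIF4G1 (4.63 and 11.7), the scaffold that holds eIF4A at the cap, CTIF (4.15 and 4.55) and EIF4G2 (1.49 and 2.33). Of 8 exon junction complex genes only CASC3 had one (3.6 and 5.48). Of 10 other subunits of TREX, the complex of DDX39B, 4 had one (40%), CHTOP (5.05 and 3.84), ALYREF (3.26 and 3.1), POLDIP3 (2.18 and 2.48) and THOC6 (1.8 and 1.76). These shares were not compared by a test.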

How the data were processed

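Antibody-enriched regions of 2 m7G IP libraries were analysed, 1 peak table for each, so peaks were called per replicate and not on pooled libraries. The submitters' processing notes name STAR and GRCh38. Which program called the peaks, and with what settings, is not stated there. Per the file headers, the authors deposited for every peak a p-value, its log10 and the log10 of an FDR (used as a score), and the linear fold or ratio of IP to input. How that ratio was scaled is unstated in the sources used here, and without counts depth is unknown.

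Peaks were matched to RefSeq genes of GRCh38.p14 by symbol or synonym within 2000 nt (99.9% and 99.8% of peaks). Same-strand blocks were overlapped and mutually best pairs kept, which gave 2639 shared peaks, and the search was tested on simulated data. Midpoints are those of the joined blocks. Strand of neighbouring genes and transcript starts came from the RefSeq start windows. Coordinates are 1-based. Exons, untranslated regions and protein sequences were not used here. No test between groups was possible within 1 group of IP libraries, so shares are set beside those of all genes. All helicase genes with a peak are named, and up to 5 genes of each other list by the lower fold. Members and lists were chosen with earlier results of these data known. Tables were computed in Python 3.11.15 (pandas 2.3.3, numpy 2.4.6), intervals in scipy 1.17.1 and figures in matplotlib 3.10.9.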

Additional observations from a re-analysis of the deposited data

How the results depend on the processing

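The number of helicase genes with a shared peak (8) was set against 10.5% of all protein-coding genes. It was 7 with 50% reciprocal overlap, where DHX36 was lost (8.67% of all), and 9 with midpoints within 100 nt, where DHX33 was gained (9.46% of all). It was 5 in the more significant 50% of each table, without DHX36, DHX37 and DHX38 (6.3% of all), and 3 where both replicates had to reach 4-fold (5.17% of all). Both of these settings use fewer peaks by construction. A single replicate has no shared peaks. Helicase genes with any peak numbered 11 in replicate 1 (15.9% of all) and 23 in replicate 2 (17.4% of all). The median fold per gene (3.85) ranged from 3.33 to 5 over its alternatives. It lay below that of all genes with replicate 1 alone (3.33 against 4.78) and above it with replicate 2 alone (5 against 4.33). The share of helicase shared peaks at the gene start (11.1%) lay below the 20.6% of all shared peaks. With midpoints within 500 nt it was 44.4%, above the 34.5% of all. It was also above with any block within 200 nt (44.4% against 36%) and with any RefSeq start (66.7% against 35.3%), an alternative chosen after seeing the data. It was below with 50% reciprocal overlap (12.5% against 22.9%). Among all helicase peaks of replicate 1 alone it was 6.25%, against 22.5% of all peaks, and of replicate 2 alone 10.3%, against 19%. With 9 shared peaks, 1 peak moves this share by 11.1 percentage points. No paired analysis was possible because the tables hold 1 peak list for each IP replicate and no input values. Tables list only peaks past the authors' threshold, so weaker enrichment in the other replicate is not visible.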
